A study of Mus musculus with 69 samples.

Results

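Antigen presentation genes were followed through RNA-seq libraries of pituitary, hypothalamus and ovary from female mice with a miR-200-resistant Zeb1 gene. The 10 genes were fixed as a list of symbols, 5 of the class I pathway (B2m, H2-K1, H2-D1, Tap1 and Nlrc5) and 5 of the class II pathway (H2-Aa, H2-Ab1, H2-Eb1, Cd74 and Ciita), and all 10 were found among 55964 gene IDs in the count tables. The symbols were chosen from earlier results of these same counts, with the genotype fold changes in view. The folds below are therefore a description of the members, and each adjusted p comes from a fit of all genes and only places a member among them.

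The mice were C57BL/6J females of 3 genotypes. WT mice carried the normal Zeb1 gene. Zeb1_200H mice (200H) carried 1 knock-in allele and Zeb1_200M mice (200M) were homozygous for it, with point mutations in the sites for miR-200a and miR-200b in the 3′ UTR of Zeb1. The knock-in was present in every cell and came from 2 ES cell clones, and the labels do not give the clone of a library. The young cohort held virgin females of 8 to 12 weeks and the older cohort females of 28 to 36 weeks used earlier for breeding tests. Every female was taken in proestrus. The labels do not give the litters of each older female. The paper reports that most homozygous females in the breeding tests had no litters, while heterozygous females were fertile. Litter history therefore went with genotype in the older cohort. In older 200M mice against WT or 200H, the genotype cannot be told apart from litter history, whose part was not tested. The 69 libraries formed 18 groups of 4, except for 3 libraries of young WT pituitary, 3 of older 200M pituitary and 3 of older 200M hypothalamus.

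Total counts ran from 3321845 in a young hypothalamus library to 14655095 in an older ovary library. The young libraries were stranded and depleted of ribosomal RNA, and the older ones were unstranded and made from poly(A) RNA, so cohort cannot be told apart from age, breeding and chemistry. Zeb1, the edited gene, was raised in 200M pituitary of both cohorts (log2 fold change 0.52, adjusted p = 2.4e-05 in young, and 0.55, adjusted p = 8.3e-04 in older, by edgeR), and was not called in hypothalamus or ovary. The tissues carried their own markers: the summed level of 5 pituitary hormone genes was at least 65410 CPM (counts scaled to a library of 1000000) in every pituitary library. Hypothalamic neuropeptide genes summed to 162 CPM or more in every hypothalamus library and ovary markers to 641 CPM or more in every ovary library.

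Class I molecules sit on nearly all nucleated cells and show peptides from inside the cell to CD8 T cells. Class II molecules are made mainly by dendritic cells, macrophages and B cells and show peptides from taken-up material to CD4 T cells. Interferon-gamma raises both pathways. Nlrc5 and Ciita encode related transactivators, Nlrc5 for class I genes and Ciita for class II genes. Neither binds DNA by itself. Both act through a protein complex on a shared promoter block, of which the Y box, bound by the factor NF-Y, is one element.

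Of the 10 members, 6 lie on chromosome 17 (GRCm38, GENCODE M21), where the major histocompatibility complex spans H2-K1 (chr17:33996017-34000347, minus strand), Tap1 (chr17:34187553-34197225), H2-Ab1 (chr17:34257689-34269419), H2-Aa (chr17:34282744-34287823, minus strand), H2-Eb1 (chr17:34305867-34316674) and H2-D1 (chr17:35262730-35267499), all on the plus strand where no strand is named. B2m lies at chr2:122147686-122153083, Nlrc5 at chr8:94434356-94527272 and Ciita at chr16:10480059-10528418, all on the plus strand. Genes on the other strand overlap B2m (Patl2), Tap1 (Psmb9), Nlrc5 (9330175E14Rik), H2-Eb1 (Gm20513) and Ciita (Dexi), and the unstranded counts of the older cohort cannot tell these partners apart. H2-K1 and H2-D1 share long stretches with each other and with the H2-Q genes, so how reads were split among them is uncertain.

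RefSeq promoter windows (GRCm38.p6, from 250 bases before the start to 50 after it) were given for 6 members. The stretch around the Y box letters CTGATTGG, searched on both strands, is shown for each promoter that held them. The match lay on the gene's own strand in H2-Aa and H2-Eb1 and on the other strand in H2-K1, H2-D1 and Tap1. Whether a match on the other strand, or at its position, acts as a Y box was not tested. Capitals mark the match, read along the gene's own strand, so that a match on the other strand appears as CCAATCAG.
H2-K1 (chr17:34000321-34000350, minus strand): atcaccaagaaCCAATCAGtgtcgccgcgg
H2-D1 (chr17:35263030-35263059, plus strand): gattccaggagCCAATCAGcgtcgccgcgg
Tap1 (chr17:34187323-34187352, plus strand): ggctcggctttCCAATCAGcggctgcgcgc
H2-Aa (chr17:34287856-34287885, minus strand): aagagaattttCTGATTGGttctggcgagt
H2-Eb1 (chr17:34305794-34305823, plus strand): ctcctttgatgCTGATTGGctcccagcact
The match started at position -51 from the start in H2-Aa, -62 in H2-Eb1, -53 in H2-D1 and -222 in Tap1. H2-K1 has 2 RefSeq starts, and its match began at -6 from one and 9 from the other. In all, 5 of these 6 promoters held CTGATTGG on either strand, against 4.1% of 32851 RefSeq promoters searched the same way.
The letters TTTCNNTTC of the interferon-stimulated response element were found in H2-K1 and H2-D1 alone of the 6, against 7.52% of all promoters, and the windows around it were identical at 29 of 30 bases.
H2-K1 (chr17:34000418-34000447, minus strand): atctccacagTTTCACTTCtgcacctaacc
H2-D1 (chr17:35262934-35262963, plus strand): atctcctcagTTTCACTTCtgcacctaacc
CAGGTA or CAGGTG, the E-box letters that ZEB1 recognises, were in 29.5% of all promoters and in 1 of the 6, Tap1, with CAGGTG at position -90.
Tap1 (chr17:34187454-34187483, plus strand): tctgcccagagaCAGGTGacgacagagggt

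The mutated sites of Zeb1 are those of miR-200a and miR-200b, whose seeds (bases 2 to 8, in capitals) set which other transcripts they pair with. The mature forms, from RefSeq, were as follows.
miR-200a-3p: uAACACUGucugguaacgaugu
miR-200b-3p: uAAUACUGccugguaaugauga
A 7-base miR-200b site is either a match to bases 2 to 8 (CAGTATT) or to bases 2 to 7 followed by A (AGTATTA). Such a site was in the annotated 3′ UTR of 2 of the 10 members, Ciita and Nlrc5, near the 19.7% of 21744 genes. The longest 3′ UTRs of these members, of 2679 and 1200 bases, exceeded those of the others, at 303 to 790. The miR-200a matches (CAGTGTT or AGTGTTA) were in 0 of 10, against 23.6%. The sites of the 2 transactivators are shown with 7 bases on each side, with the match in capitals.
Ciita (match at chr16:10526846-10526852, plus strand): agccacaCAGTATTgtttcta
Nlrc5 (match at chr8:94526333-94526339, plus strand): ttatgagAGTATTAtgaggtt

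Before genotypes were compared, the members differed widely in level between tissues. Levels are CPM with TMM scaling within a tissue and cohort, and since each tissue was scaled by itself, levels set across tissues are descriptions. In older WT mice Cd74, the invariant chain that guards the class II groove, stood at 242 ± 57.3 CPM in ovary (SD, n = 4), 111 ± 34.0 in pituitary (n = 4) and 7.75 ± 3.42 in hypothalamus (n = 4). The lowest ovary library (193 CPM) was above the highest pituitary library (154 CPM), and the lowest pituitary library (72.7 CPM) was above the highest hypothalamus library (11.2 CPM). B2m, the light chain of every class I molecule, had the same order of 269 ± 16.8 CPM in ovary, 184 ± 26.0 in pituitary and 78.2 ± 9.43 in hypothalamus. The spread between tissues was thus wider for Cd74 than for B2m in these libraries.

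Young WT mice showed the same order of tissues. Cd74 stood at 172 ± 25.2 CPM in ovary (n = 4), 81.6 ± 10.8 in pituitary (n = 3) and 7.71 ± 0.971 in hypothalamus (n = 4). B2m stood at 1585 ± 158 CPM, 624.8 ± 63.5 and 250 ± 11.7. In the class I heavy chains the cohorts differed the other way from B2m: H2-D1 was 53.2 ± 6.57 CPM in young WT ovary against 224 ± 28.2 in older WT ovary. The ratio of H2-D1 to B2m was 0.0337 ± 0.00361 in young and 0.827 ± 0.0604 in older WT ovary, a gap that cannot be told apart from library chemistry and read assignment.

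Per kilobase of exon, B2m was the highest member in all 6 tissue and cohort sets. In older WT ovary it reached 313 CPM per kilobase, followed by Cd74 at 144, H2-K1 at 100.2 and H2-D1 at 86.7. H2-Eb1 (52.6), H2-Ab1 (33.5) and H2-Aa (30.1) came next, and Tap1 (6.27), Nlrc5 (1.80) and Ciita (0.827) last. The transactivators were thus the least abundant, with 18 to 42 counts per library for Ciita in older pituitary and 0 to 6 in young hypothalamus. In the young hypothalamus Tap1, Nlrc5, H2-Eb1 and Ciita did not pass the filter on low counts, so 6 of the 10 were tested there. In the other 5 sets all 10 were tested, with the filter applied to each pair of genotypes.

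In the older pituitary the class II genes were higher in 200M than in WT. Of the 5 class II members 4 were raised and of the 5 class I members 0 were called, in a comparison in which 11.7% of 14711 genes were raised and 9.77% lowered. The median log2 fold change was 0.78 over the class II members and -0.02 over the class I members, against -0.01 over all genes. The 5 class II members lay above every WT library in every 200M library, which 15.6% of all genes tested did.

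**Figure D1:**
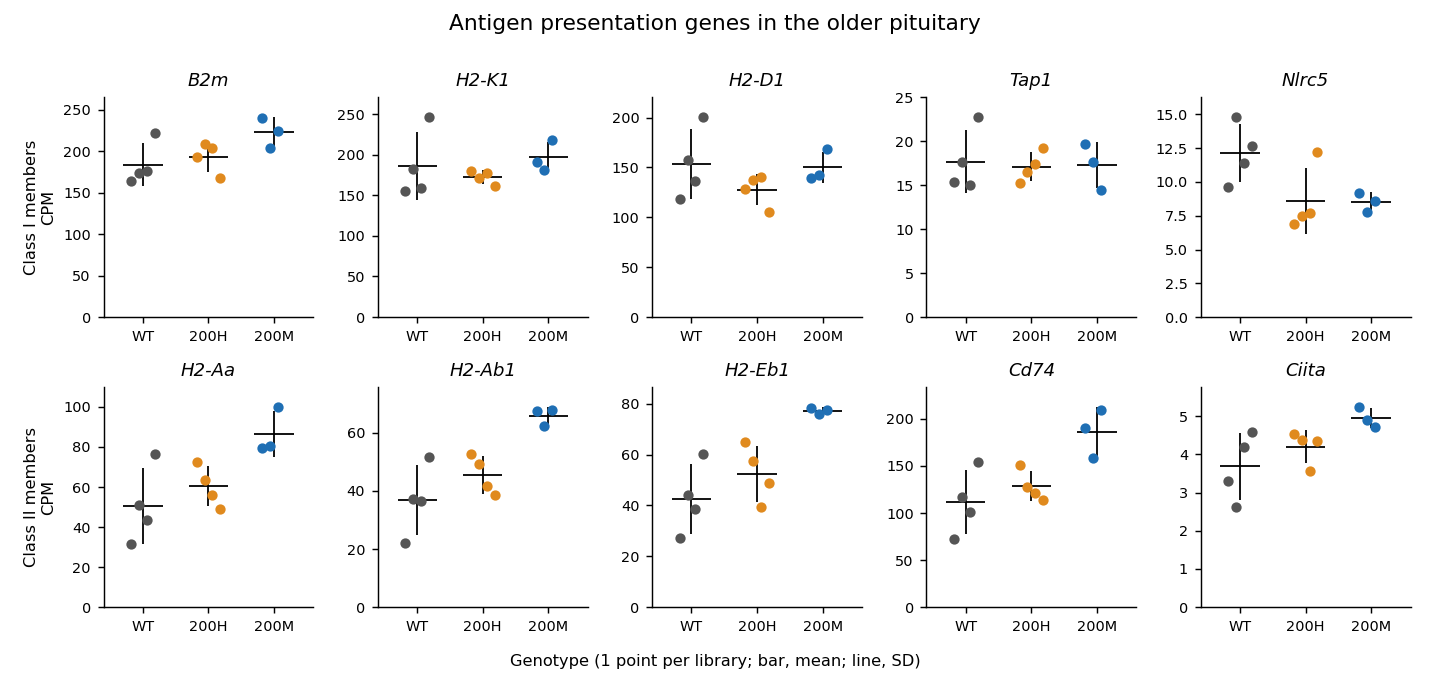
Level (CPM, linear axes from 0) of each member in each older pituitary library by genotype, with class I members in the upper row and class II members in the lower row; points are libraries (4 WT, 4 200H, 3 200M), bars means and lines SD. The 3 200M libraries lie above all 4 WT libraries in each class II panel, with 200H overlapping WT, and the 200M libraries overlap WT in 4 of the 5 class I panels.

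H2-Ab1, the beta chain of the I-A class II molecule, measured 22.1, 37.1, 36.4 and 51.8 CPM in the 4 WT libraries, 52.6, 49.4, 41.6 and 38.5 in the 4 200H libraries and 67.4, 62.5 and 67.7 in the 3 200M libraries. The 200M values sat close together above both other groups, while 200H overlapped WT. In 200M against WT the log2 fold change reached 0.84 ± 0.20 (SE), with adjusted p = 0.0098 by edgeR's quasi-likelihood test with Benjamini-Hochberg adjustment.

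H2-Eb1, the beta chain of I-E, measured 27.3, 44.0, 38.6 and 60.3 CPM in WT, 64.8, 57.4, 39.2 and 48.7 in 200H and 78.5, 75.9 and 77.5 in 200M. It had the largest fold of the members here, at a log2 fold change of 0.87 ± 0.19 (edgeR, adjusted p = 0.0062). H2-Aa, the alpha chain of I-A, measured 31.6, 50.9, 43.6 and 76.4 CPM in WT and 79.5, 80.5 and 99.8 in 200M, a log2 fold change of 0.78 ± 0.22 (edgeR, adjusted p = 0.023). The highest WT library came within a few CPM of the lowest 200M library for this gene.

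Cd74 measured 72.7, 117, 101 and 154 CPM in WT, 151, 128, 122 and 114 in 200H and 191, 158 and 210 in 200M. Its log2 fold change of 0.75 ± 0.19 (edgeR, adjusted p = 0.015) was close to those of the class II chains. The ratio of Cd74 to H2-Ab1 within a library was 3.05 ± 0.228 in WT and 2.82 ± 0.284 in 200M. Ciita, the class II transactivator, was at 3.31, 2.63, 4.20 and 4.60 CPM in WT and 5.23, 4.90 and 4.71 in 200M, a log2 fold change of 0.46 ± 0.25 that did not pass the test (edgeR, adjusted p = 0.21). WT replicate 4 was the highest WT library for all 4 called genes.

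With DESeq2 H2-Aa did not pass (adjusted p = 0.072). Leaving out 200M replicate 1 or 200M replicate 3 each left 2 of these calls, H2-Ab1 and H2-Eb1, which held with each of the 7 libraries left out in turn (adjusted p up to 0.040 and 0.026). The call of H2-Aa was lost in 5 of the 7 (WT replicates 2 and 3 and each 200M library, adjusted p up to 0.104) and that of Cd74 in 2 of the 7 (adjusted p up to 0.073).

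No class I member was called in the older pituitary. B2m measured 164, 174, 176 and 222 CPM in WT and 241, 204 and 224 in 200M (log2 fold change 0.29 ± 0.11, edgeR, adjusted p = 0.080), and passed only without WT replicate 4 (adjusted p = 0.0058). H2-K1 (0.09 ± 0.14), H2-D1 (-0.02 ± 0.15) and Tap1 (-0.03 ± 0.17) had differences smaller than their errors. Nlrc5, the class I transactivator, measured 9.66, 14.8, 11.4 and 12.7 CPM in WT and 9.21, 7.74 and 8.59 in 200M. All 3 200M libraries lay below the 4 WT libraries, which 15.8% of all genes did, and the log2 fold change of -0.52 ± 0.18 missed the threshold (edgeR, adjusted p = 0.053), passing only without WT replicate 1 (adjusted p = 0.024).

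Against WT none of the 10 members was called in 200H older pituitary by edgeR, where 12.2% of 14922 genes were called, or by DESeq2, where 11.8% were. At an unadjusted p under 0.05 there was 1 member, against 26.2% of all genes. Class II log2 fold changes were all above 0, with a median of 0.25. Without WT replicate 4 H2-Aa was called (adjusted p = 0.0496) and without 200H replicate 4 Nlrc5 was (log2 fold change with all libraries -0.50 ± 0.20, adjusted p = 0.13, and adjusted p = 0.025 without it). Against 200H, 0 members were called by edgeR in 200M, where 0.121% of 14862 genes were called. With an unadjusted p under 0.05 there were 7 members, against 10.6% of all genes, and DESeq2 called 4, against 0.845% of all genes. The 5 class II members were above every 200H library in every 200M library, as were 5.56% of all genes, with a median log2 fold change of 0.53. Without 200H replicate 2, H2-Aa, H2-Ab1, H2-Eb1 and Cd74 were called (adjusted p 0.019 to 0.049). The share of all genes called without that library is not given here, so this count is not a result about the members. These comparisons share libraries with that of 200M against WT.

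Macrophage markers moved in the same direction in this tissue. Their summed level was 121 to 148 CPM in WT, 153 to 188 in 200H and 165 to 234 in 200M, and 3 of 12 were raised and 0 lowered, among them Mrc1 (log2 fold change 1.27 ± 0.22, edgeR, adjusted p = 0.0016), the mannose receptor of tissue macrophages, and Csf1r (0.51 ± 0.14, adjusted p = 0.020). None of the 12 was at 0 throughout a group. Dendritic cell markers summed to 9.80 to 17.2 CPM in WT and 16.9 to 21.3 in 200M, with 3 of 8 tested and 0 called. T and NK cell markers summed to 2.62 to 3.50 CPM in WT and 3.61 to 5.11 in 200M, and B cell markers to 7.71 to 10.2 and 3.10 to 8.37. Without Cd4 the T and NK sum overlapped, at 1.64 to 2.07 CPM in WT and 1.23 to 2.51 in 200M.

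The hormone genes of the older pituitary differed too. Prl, the prolactin gene of lactotrophs, went from 195500 ± 20590 CPM in WT to 61030 ± 9245 in 200M (log2 fold change -1.67 ± 0.13, edgeR, adjusted p = 3.4e-06). Cga, the shared alpha subunit of the glycoprotein hormones, was lowered (-0.81 ± 0.11, adjusted p = 3.2e-04) and Pomc, the precursor gene of corticotrophs and melanotrophs, was raised (1.02 ± 0.21, adjusted p = 0.0047). Of 5 hypothalamic neuropeptide genes 2 were tested and 1 was raised, Oxt, the oxytocin gene (3.80 ± 1.42 CPM in WT and 9.06 ± 0.862 in 200M, 1.25 ± 0.26, adjusted p = 0.0049), and their sum was 5.25 to 7.73 CPM in WT, 1.86 to 12.3 in 200H and 11.2 to 14.1 in 200M. In whole tissue more cells of a type and more RNA per cell cannot be told apart, and the part of immune cells or of this makeup in the class II result was not tested.

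Other genes of the pathways were called in both directions in the older pituitary. Of 16 other class II pathway genes 11 were tested, 1 was raised and 2 were lowered, with a median log2 fold change of 0.29. Lgmn, a lysosomal protease, was raised (0.65 ± 0.10, edgeR, adjusted p = 0.0010), from 60.8 ± 6.91 CPM in WT to 94.5 ± 9.82 in 200M. Ifi30, a lysosomal thiol reductase, was lowered (-0.82 ± 0.23, adjusted p = 0.026), as was Rfx5, a subunit of the promoter complex (-0.35 ± 0.10, adjusted p = 0.022). Of 18 other class I pathway genes 0 were raised and 2 lowered: Tapbpl, a peptide editor of class I molecules (-0.68 ± 0.09, adjusted p = 3.7e-04), and the class I heavy chain H2-Q4 (-0.45 ± 0.12, adjusted p = 0.021). Of 26 interferon pathway genes tested, 1 was raised, the kinase Jak1 (0.40 ± 0.08, adjusted p = 0.0034), and 1 lowered, the transcription factor Irf1 (-0.56 ± 0.13, adjusted p = 0.012).

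In the older ovary the calls were in class I. Of the 5 class I members 3 were raised in 200M against WT (B2m, H2-K1 and H2-D1) and of the 5 class II members 0 were called, where 1.52% of 17792 genes were raised and 1.19% lowered. The median log2 fold change was 0.86 over class I members and 0.65 over class II members, against 0.04 over all genes, and all 10 values were above 0.

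**Figure D2:**
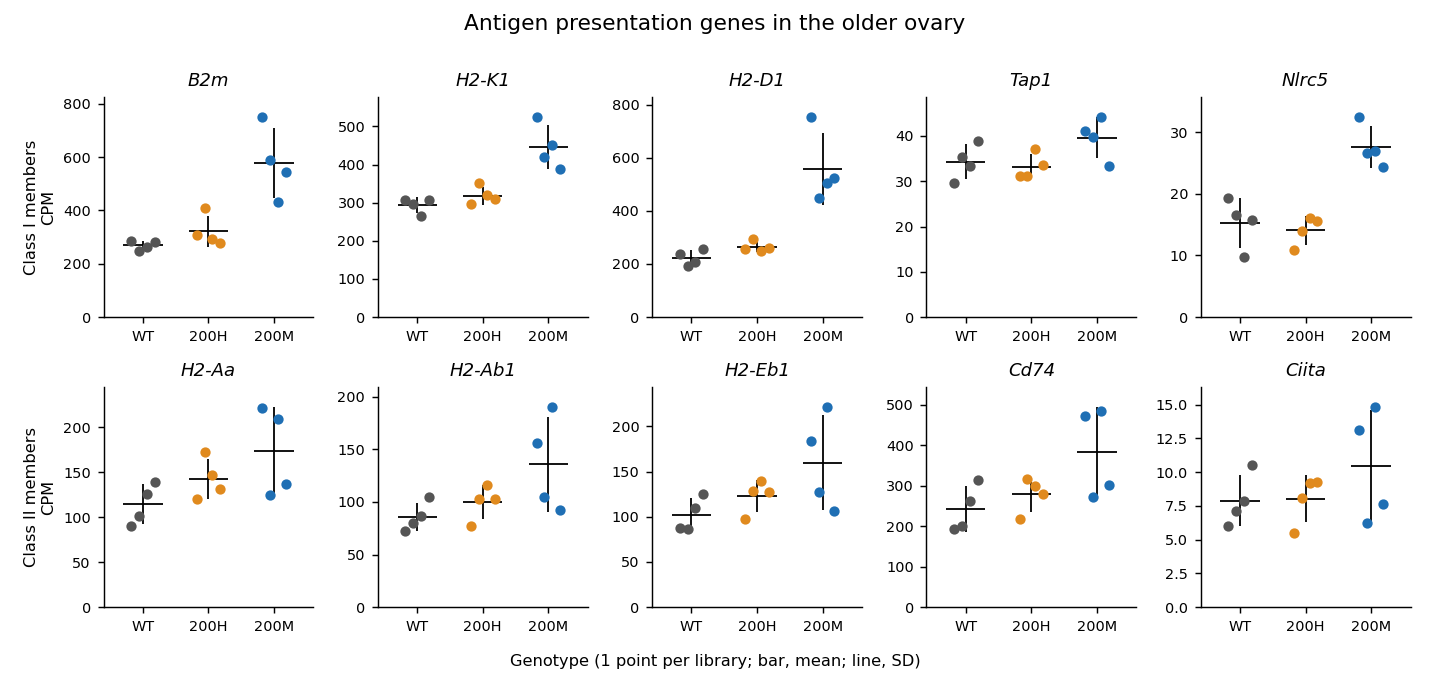
Level (CPM, linear axes from 0) of each member in each older ovary library by genotype, class I members above and class II members below; points are libraries (4 per genotype), bars means and lines SD. In the panels of B2m, H2-K1, H2-D1 and Nlrc5 the 200M libraries lie above all WT and 200H libraries, and in each class II panel 2 of the 4 200M libraries stand high and 2 lie among the other genotypes.

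H2-D1, a classical class I heavy chain, measured 236, 193, 208 and 256 CPM in WT, 256, 293, 251 and 260 in 200H and 754, 448, 506 and 522 in 200M. All 4 200M libraries lay far above both other groups, with replicate 1 the highest. The log2 fold change against WT was 1.33 ± 0.19 (edgeR, adjusted p = 0.011). Against 200H it was 1.06 ± 0.17 (adjusted p = 0.024).

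B2m measured 285, 249.5, 262 and 281 CPM in WT, 306, 408, 294 and 279 in 200H and 750, 588, 431 and 543 in 200M. The groups of WT and 200M did not overlap, and 6.14% of all genes tested had every 200M library above every WT library. The log2 fold change against WT was 1.12 ± 0.18 (edgeR, adjusted p = 0.018), and against 200H it was 0.83 ± 0.20 without passing the test (adjusted p = 0.086). H2-K1, the other classical heavy chain, measured 308, 297, 265 and 308 CPM in WT, 295, 351, 319.5 and 309 in 200H and 524, 421, 452 and 389 in 200M. Its log2 fold change was smaller, at 0.61 ± 0.13 (edgeR, adjusted p = 0.039).

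Nlrc5 measured 19.4, 16.5, 9.67 and 15.7 CPM in WT, 10.9, 13.9, 16.0 and 15.5 in 200H and 32.4, 26.6, 26.9 and 24.3 in 200M. Every 200M library lay above every library of the other genotypes, and 5.39% of all genes had every 200M library above every 200H library. The difference passed against 200H (log2 fold change 0.96 ± 0.17, edgeR, adjusted p = 0.030) and missed the threshold against WT (0.86 ± 0.21, adjusted p = 0.073). Tap1, which pumps peptides into the endoplasmic reticulum, gave 0.21 ± 0.12 against WT (adjusted p = 0.41), with overlapping groups.

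The class II members were split within the 200M group. Cd74 measured 193, 200.4, 261 and 315 CPM in WT, 219, 317, 300.3 and 280 in 200H and 472, 273, 486 and 301 in 200M. Replicates 1 and 3 stood above all other libraries while replicates 2 and 4 lay among WT and 200H, and H2-Aa, H2-Ab1, H2-Eb1 and Ciita had the same 2 libraries highest. The log2 fold changes ran from 0.42 ± 0.31 for Ciita to 0.67 ± 0.23 for Cd74, with adjusted p from 0.17 to 0.52 by edgeR.

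The class I calls in ovary rested on few libraries. Leaving out WT replicate 2 or WT replicate 3 left 0 calls, and leaving out WT replicate 4 or 200M replicate 4 left 1. Adjusted p ranged from 0.013 to 0.056 for H2-D1, 0.0083 to 0.083 for B2m and 0.0499 to 0.143 for H2-K1 over the 8 libraries left out in turn. DESeq2 called all 3 along with Nlrc5, where it called 6.91% of all genes. Against 200H edgeR called 2 members, where 1.61% of 17855 genes were called, and DESeq2 called 4, where it called 4.62%. Leaving out any 200H library or 200M replicate 4 left 0 of them, and 200M replicate 1 or 2 left 1. Between 200H and WT 0 of 10 members were called by edgeR, which called 0% of 17605 genes, or by DESeq2, which called 0.104%. There were 2 members at an unadjusted p under 0.05, against 6.59% of all genes.

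Some other class I pathway genes were raised. Of 18 genes 4 were raised and 0 lowered, among them the nonclassical heavy chain H2-Q6 (12.5 ± 3.99 CPM in WT and 30.7 ± 4.45 in 200M, log2 fold change 1.30 ± 0.25, edgeR, adjusted p = 0.032) and Psmb8, an immunoproteasome subunit (23.1 ± 4.13 and 38.1 ± 3.17 CPM, 0.74 ± 0.14, adjusted p = 0.032). All the called genes but Psmb8 were H2-Q genes. Their reads can be shared with near-identical copies and with H2-K1 and H2-D1, so their levels are uncertain. Over the 18 genes the median log2 fold change was 0.21, with 13 values above 0. Their summed level was 3275 to 3748 CPM in WT and 2998 to 3184 in 200M. Of 16 other class II genes 15 were tested, with a median log2 fold change of 0.51. Of 27 interferon pathway genes 1 was raised, Irf8 (1.03 ± 0.20, adjusted p = 0.032), a transcription factor of myeloid and B cells, and the median was 0.00.

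Markers of immune cells stood apart in the same libraries. T and NK cell markers summed to 7.77 to 13.4 CPM in WT, 11.5 to 17.1 in 200H and 51.4 to 98.5 in 200M, and 4 of 7 tested were raised. Cd4 went from 3.38 ± 1.34 CPM in WT to 52.0 ± 21.8 in 200M (log2 fold change 3.96 ± 0.40, edgeR, adjusted p = 0.0032), while Cd3g, a subunit of the T cell receptor complex, went from 1.29 ± 0.407 to 3.90 ± 0.738 (1.59 ± 0.28, adjusted p = 0.026). Macrophage markers summed to 294 to 552 CPM in WT and 607 to 1205 in 200M, with 2 of 12 raised, Tyrobp (2.13 ± 0.34, adjusted p = 0.018) and the pan-leukocyte gene Ptprc (1.45 ± 0.31, adjusted p = 0.049). Dendritic cell markers summed to 58.9 to 82.3 CPM in WT and 103 to 222 in 200M, and Itgax was raised (2.85 ± 0.51, adjusted p = 0.026). Most of that rise was Itgax, an integrin of dendritic cells and macrophages: without it the other 7 markers summed to 51.3 to 67.7 CPM in WT and 63.9 to 76.8 in 200M, with overlapping groups. Without Cd4 the T and NK sum was 4.93 to 8.87 CPM in WT and 13.7 to 19.8 in 200M, and these groups did not overlap. B cell markers summed to 3.53 to 5.43 CPM in WT and 5.004 to 25.6 in 200M. No marker of these lists was at 0 throughout a group. The ovary makeup differed too: Star, a steroidogenic gene of luteal and theca cells, was 1939 ± 1407 CPM in WT and 141 ± 60.9 in 200M (-3.77 ± 0.64, adjusted p = 0.022). The part of either in the class I result was not tested.

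**Figure D3:**
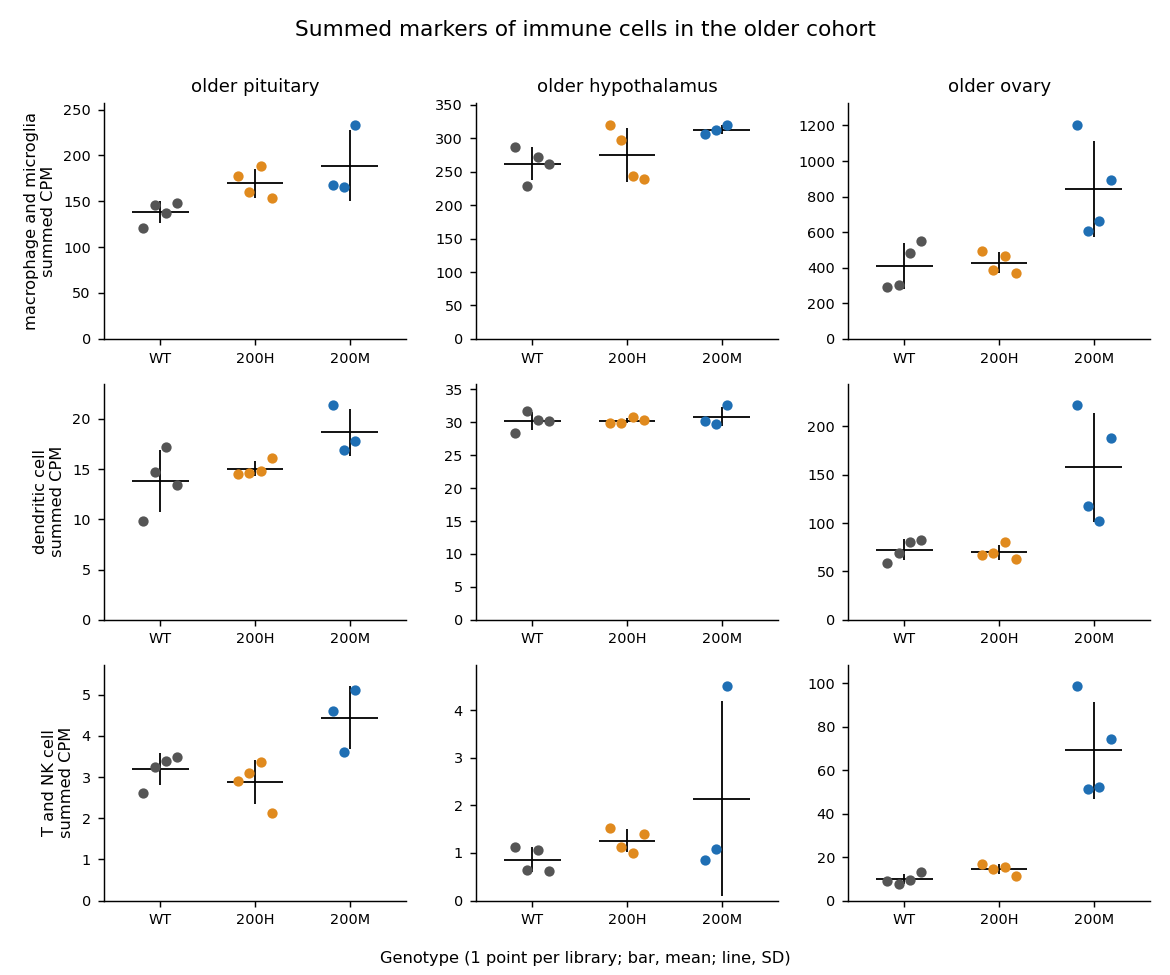
Summed level (CPM, linear axes from 0) of macrophage and microglia, dendritic cell, and T and NK cell markers in each older library by genotype, for pituitary, hypothalamus and ovary; points are libraries, bars means and lines SD. In ovary each of the 3 sums is higher in all 4 200M libraries than in any WT or 200H library, and without Itgax the dendritic cell sums of WT and 200M overlap.

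In the young ovary the direction was opposite, and it concerned class II. H2-Aa and H2-Ab1 were lowered in 200M against WT, and 0 of the 10 members were raised, where 1.7% of 19250 genes were lowered and 0.878% raised. The median log2 fold change was -0.40 over class II members and -0.16 over class I members, against 0.01 over all genes.

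**Figure D4:**
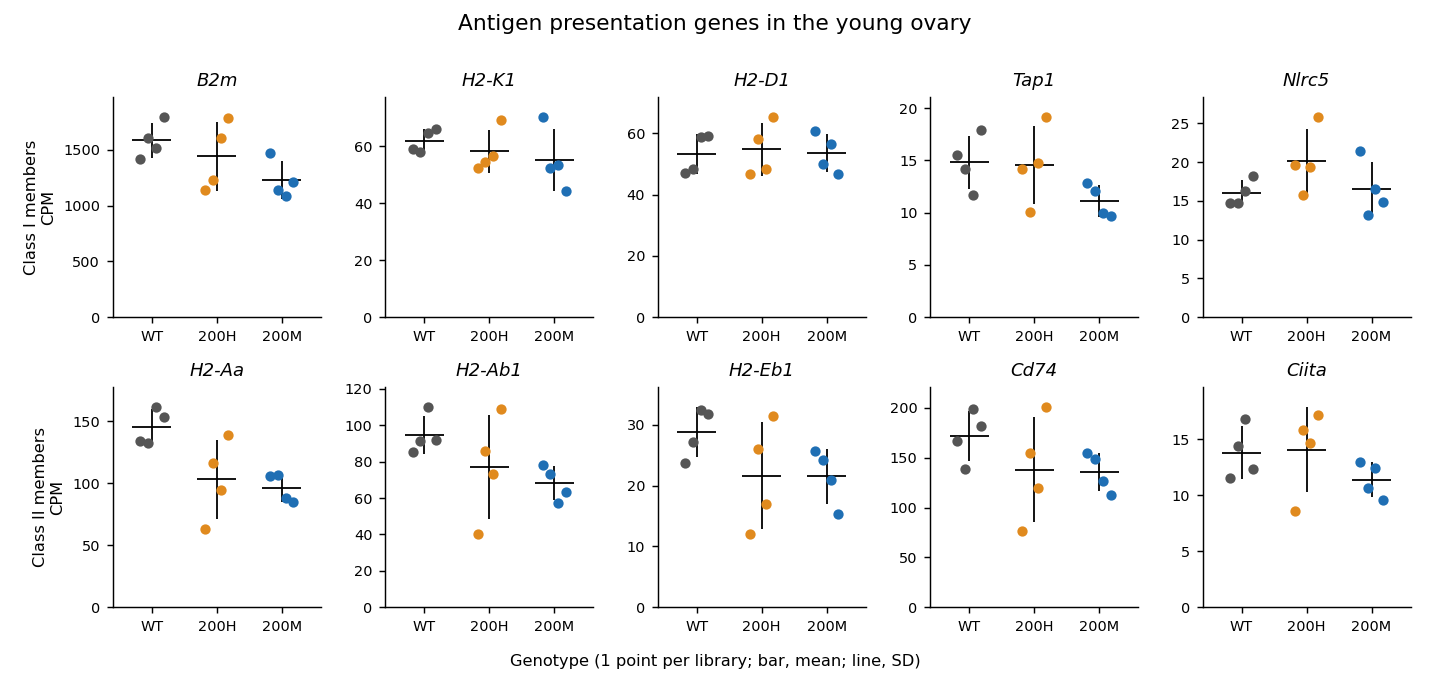
Level (CPM, linear axes from 0) of each member in each young ovary library by genotype, class I members above and class II members below; points are libraries (4 per genotype), bars means and lines SD. The 4 200M libraries lie below the 4 WT libraries for H2-Aa and H2-Ab1, and the 200H libraries spread across both groups.

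H2-Aa measured 134, 132, 161 and 154 CPM in WT, 63.3, 116, 94.6 and 139 in 200H and 106, 107, 88.2 and 84.9 in 200M. WT and 200M did not overlap, and 4.09% of all genes had every 200M library below every WT library. The log2 fold change was -0.58 ± 0.08 (edgeR, adjusted p = 0.0045), and the call held with each of the 8 libraries left out in turn (adjusted p up to 0.022). H2-Ab1 measured 85.3, 91.3, 109.9 and 92.1 CPM in WT, 40.3, 85.9, 73.3 and 109 in 200H and 78.3, 73.3, 57.5 and 63.6 in 200M (-0.46 ± 0.09, edgeR, adjusted p = 0.017). This call was lost without 200M replicate 3 (adjusted p = 0.065). The 200H libraries ranged more widely than both other groups, from below the lowest 200M library into the WT range.

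Cd74 (-0.32 ± 0.10, edgeR, adjusted p = 0.12), H2-Eb1 (-0.40 ± 0.14, adjusted p = 0.17) and Ciita (-0.26 ± 0.15, adjusted p = 0.44) had the same sign without passing. B2m, at 1422 to 1794 CPM in WT and 1090 to 1475 in 200M, gave -0.35 ± 0.09 (edgeR, adjusted p = 0.058) and passed with DESeq2 (adjusted p = 0.0082) and without 200M replicate 1 (adjusted p = 0.047). When all 3 genotypes were fitted together, neither H2-Aa (adjusted p = 0.16) nor H2-Ab1 (adjusted p = 0.39) passed.

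Macrophage markers were lower in these libraries as well. They summed to 259 to 340 CPM in WT, 158 to 357 in 200H and 232 to 255 in 200M, and 2 of 12 were lowered, Mrc1 (60.1 ± 4.98 CPM in WT and 41.7 ± 6.57 in 200M, -0.51 ± 0.10, edgeR, adjusted p = 0.017) and Itgam (-0.66 ± 0.14, adjusted p = 0.031). Their part in the class II result was not tested. Of 25 interferon pathway genes tested 3 were lowered and 0 raised, among them Ifit1 (-0.87 ± 0.18, adjusted p = 0.022) and Gbp7 (-0.41 ± 0.09, adjusted p = 0.025), both induced by interferons.

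In the young pituitary 1 member was called. Tap1 was lowered in 200M (7.36, 6.27 and 7.19 CPM in the 3 WT libraries and 5.04, 4.25, 5.47 and 4.57 in the 4 200M libraries, log2 fold change -0.52 ± 0.17, edgeR, adjusted p = 0.043), in a comparison that called 21.5% of 18199 genes, with 10% of all genes lowered. The groups did not overlap, as for 13.3% of genes in that direction. The call did not survive DESeq2 (adjusted p = 0.14) or leaving out any of the 7 libraries (adjusted p 0.052 to 0.132).

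Class II members were not raised in the young 200M pituitary. Cd74 measured 77.8, 73.2 and 93.9 CPM in WT and 84.3, 70.2, 72.2 and 53.7 in 200M (-0.22 ± 0.12, edgeR, adjusted p = 0.21). H2-Ab1 measured 34.1, 30.1 and 31.8 CPM in WT and 36.7, 35.1, 30.7 and 22.1 in 200M (-0.04 ± 0.13, adjusted p = 0.88). The groups overlapped, with 200M replicate 4 the lowest library for both genes. Macrophage markers summed to 60.9 to 78.4 CPM in WT and 85.8 to 106 in 200M, and 4 of 11 tested were raised, where 11.5% of all genes were, led by Mrc1 (0.79 ± 0.18, adjusted p = 0.0046) and Csf1r (0.68 ± 0.15, adjusted p = 0.0052). The relation of these markers to the class II levels was not tested.

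Of the other pathway genes, Lgmn, Ifi30, Tapbpl, Jak1 and Irf1 were called in the same direction in 200M pituitary of both cohorts. The further genes named below were called in the young cohort and not in the older one. In young 200M pituitary Lgmn was raised (0.79 ± 0.10, edgeR, adjusted p = 3.4e-05) and Ifi30 lowered (-1.13 ± 0.28, adjusted p = 0.0096). Tapbpl was lowered (-0.65 ± 0.12, adjusted p = 0.0012), together with the chaperone Calr (-0.29 ± 0.07, adjusted p = 0.0088) among 4 lowered and 1 raised of 18 class I pathway genes, and the raised one was the proteasome activator Psme1 (0.31 ± 0.10, adjusted p = 0.032). Of 25 interferon pathway genes 2 were raised, the kinases Jak1 (0.40 ± 0.06, adjusted p = 1.5e-04) and Jak2 (0.25 ± 0.08, adjusted p = 0.032), and 2 lowered, Irf1 (-0.60 ± 0.14, adjusted p = 0.0060) and the chemokine Cxcl10 (-1.27 ± 0.41, adjusted p = 0.041). 

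The heterozygous mice gave no call of a member by edgeR or DESeq2 in the other sets. In young pituitary 0 members were called in 200H against WT, where edgeR called 12.3% of 18051 genes and DESeq2 11.2%, and 0 were at an unadjusted p under 0.05, against 25.5% of all genes. In young hypothalamus edgeR called 0.0202% of all genes and DESeq2 0.00311%, and 1 member was at an unadjusted p under 0.05, against 3.93% of genes. In young ovary edgeR called 0.0051% and DESeq2 0.56% of all genes, and 2 members were at an unadjusted p under 0.05, against 7.05% of genes. In older hypothalamus edgeR called 0% and DESeq2 0.0159% of all genes, and 1 member was at an unadjusted p under 0.05, against 2.8% of genes.

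Between 200M and 200H edgeR called 0 members in the young sets and in older hypothalamus. It called 0.0383% of all genes in young pituitary, with 3 members at an unadjusted p under 0.05 against 5.92% of genes. It called 0% of genes in young hypothalamus and young ovary, with 0 members at an unadjusted p under 0.05 against 4.6% and 3.36% of genes. In older hypothalamus it called 0% of genes, with 3 members at an unadjusted p under 0.05 against 19.5% of genes, and DESeq2 called 3 members and 6.01% of genes.

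In the older hypothalamus H2-Aa, H2-Ab1, H2-Eb1 and Cd74 had their largest folds of the 6 sets and none passed the test. H2-Aa measured 3.36, 0.908, 3.78 and 3.22 CPM in WT, 9.76, 7.67, 3.85 and 2.08 in 200H and 11.4, 5.13 and 12.1 in 200M. The 3 200M libraries lay above the 4 WT libraries, and the 200H libraries spanned both. The log2 fold change was 1.75 ± 0.37 (edgeR, adjusted p = 0.10). H2-Eb1 gave 1.53 ± 0.35, Cd74 1.20 ± 0.32 and H2-Ab1 1.14 ± 0.32 (adjusted p 0.11 to 0.13). Ciita had the other sign (-0.44 ± 0.35). Counts were low, at 10 to 169 per library for H2-Aa.

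Class I members had smaller folds with tighter groups there. B2m measured 88.6, 67.0, 82.5 and 74.6 CPM in WT and 99.8, 99.1 and 99.4 in 200M (0.36 ± 0.10, edgeR, adjusted p = 0.12). H2-D1 measured 60.8, 47.9, 64.4 and 55.8 CPM in WT and 78.5, 82.3 and 73.8 in 200M (0.46 ± 0.11, adjusted p = 0.11), and H2-K1 gave 0.55 ± 0.13 (adjusted p = 0.11). In all, 6 of the 10 members had every 200M library above every WT library, which 7.29% of 16067 genes did. Members called numbered 0 by edgeR, against 0.00622% of all genes, and 4 by DESeq2, against 5.11%. At an unadjusted p under 0.05 there were 7 members, against 18.1% of all genes. DESeq2 gave no adjusted p for H2-Ab1, H2-Eb1, Ciita and Nlrc5. Without WT replicate 1 H2-Eb1 passed (adjusted p = 0.045).

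Of 5 pituitary hormone genes 1 was raised in the 200M hypothalamus libraries, and their summed level overlapped, at 46.6 to 93.4 CPM in WT, 60.2 to 136 in 200H and 76.5 to 160.2 in 200M. Gh was at most 0.493 CPM in WT and 6.37 to 7.96 in 200M, and it was the single gene called in this comparison. Prl, which was not called, was at most 1.97 CPM in WT and 6.78 to 10.4 in 200M. In 200H Gh was 1.25 to 39.7 CPM and Prl 2.01 to 24.6. Macrophage and microglia markers summed to 229 to 286 CPM in WT, 239 to 321 in 200H and 306 to 320 in 200M, and T and NK cell markers to 0.628 to 1.12 CPM in WT and 0.842 to 4.50 in 200M. Without Cd4 the T and NK sum was 0.363 to 0.839 CPM in WT and 0.655 to 0.857 in 200M. The part of these in the class II folds was not tested. In the young hypothalamus 0 of 6 members tested were called by edgeR, which called 0.02% of 14988 genes, or by DESeq2, which called 0%. At an unadjusted p under 0.05 there were 0 members, against 5.65% of genes, and log2 fold changes against WT ran from 0.02 ± 0.13 for B2m to 0.66 ± 0.37 for H2-Ab1. Pituitary hormone genes differed in these libraries too. Prl was lowered, from 17.5 ± 9.42 CPM in WT to 2.31 ± 1.42 in 200M (edgeR, adjusted p = 0.0060). Tshb was raised, from 0.226 ± 0.303 to 7.91 ± 7.82 CPM (edgeR, adjusted p = 0.0064). DESeq2 called neither gene. Their relation to the members was not tested.

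**Figure D5:**
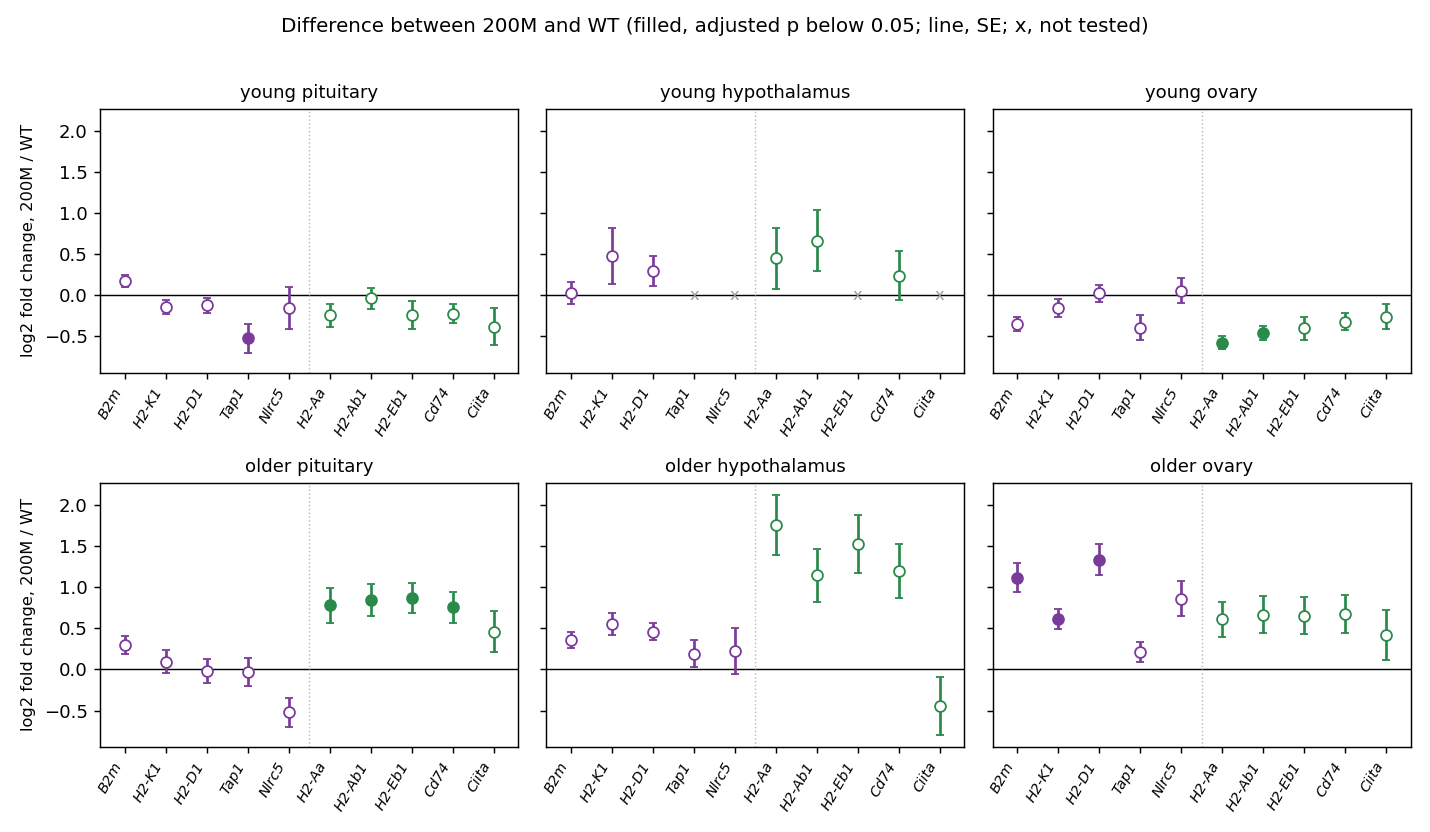
Log2 fold change of 200M against WT with its SE (vertical axis) for the 10 members (horizontal axis, class I left of the dotted line in purple, class II right of it in green) in each tissue and cohort; filled points passed the test, open points did not, and x marks a member that was not tested. Filled points are 4 class II members in older pituitary, 3 class I members in older ovary, 2 class II members in young ovary and Tap1 in young pituitary.

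The differences of the 200M effect between tissues were tested as interaction terms. The labels do not say whether libraries of different tissues came from the same mouse, and these fits treated all libraries as separate animals. In the older cohort 3 class I members had a lower effect in pituitary than in ovary: Nlrc5 by -1.35 ± 0.29 (edgeR, adjusted p = 0.015), H2-D1 by -1.33 ± 0.26 (adjusted p = 0.0098) and B2m by -0.80 ± 0.22 (adjusted p = 0.0496), where 5.77% of 18736 genes were called. The B2m term was lost with 13 of 15 libraries left out in turn (adjusted p up to 0.14) and the Nlrc5 term without older pituitary 200M replicate 2 (adjusted p = 0.061), while that of H2-D1 held in all 15. The class II members, of which 4 were called in pituitary and 0 in ovary, gave differences of 0.05 to 0.24 with errors of 0.34 to 0.42 and adjusted p of 0.74 or higher, so these data did not show a difference between the tissues for class II. The older ovary was counted with another tool and annotation than the older pituitary.

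In the young cohort B2m had a higher 200M effect in pituitary than in ovary, by 0.52 ± 0.13 (edgeR, adjusted p = 0.011), where 10.1% of 22130 genes were called. It measured 553, 647 and 674 CPM in WT pituitary and 756, 652, 722 and 689 in 200M pituitary. This term held with each of the 15 libraries left out (adjusted p up to 0.045). No other member passed.

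Between cohorts 2 class I members differed in ovary. The 200M effect was lower in young than in older ovary by -1.44 ± 0.21 for B2m (edgeR, adjusted p = 0.016) and by -1.29 ± 0.22 for H2-D1 (adjusted p = 0.030), where 0.197% of 21786 genes were called. All 10 differences were below 0, 9 were at an unadjusted p under 0.05, against 12% of all genes, and DESeq2 called 7, against 1.83%. The B2m call was lost without young ovary WT replicate 4, young ovary 200M replicate 4 or older ovary WT replicate 2 (adjusted p up to 0.055), and the H2-D1 call with 8 of 16 libraries left out (adjusted p up to 0.0997). In pituitary the class II differences between cohorts were -0.79 to -1.05 with adjusted p of 0.42 or higher by edgeR. There 0 members were called by edgeR, which called 0.0273% of 18344 genes, or by DESeq2, which called 0.133%, and 5 were at an unadjusted p under 0.05, against 6.85% of genes. Without older pituitary WT replicate 4, 3 were called (adjusted p 0.034 to 0.043). The share of all genes called without that library is not given here, so this count is not a result about the members. The remaining 5 pairs of sets called 0 members by edgeR, with 2 to 5 at an unadjusted p under 0.05. Pairs with young hypothalamus took in members that did not pass the filter there by itself. Ciita, at 0 to 6 counts in young hypothalamus libraries, was among these members for young pituitary and young ovary minus young hypothalamus. H2-Eb1 was among them for young minus older hypothalamus. Of all genes, edgeR called 10.5% for young pituitary minus young hypothalamus (22.8% at an unadjusted p under 0.05), 0.11% for young ovary minus young hypothalamus (8.17%) and 17.5% for older pituitary minus older hypothalamus (31.6%). It called 0.897% for older ovary minus older hypothalamus (12.4%) and 0.154% for young minus older hypothalamus (10.3%). Cohort cannot be told apart from chemistry in either comparison.

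H2-Aa, H2-Ab1, H2-Eb1 and Cd74 varied together from library to library. Ciita, whose mean was under 1 CPM in young hypothalamus, was not included. Over all 69 libraries, with each group's own mean removed from log2(CPM + 1), Pearson's r with Cd74 was 0.94 for H2-Aa, 0.89 for H2-Ab1 and 0.87 for H2-Eb1, the 3 highest of 12449 genes. Among tissues r with H2-Aa was 0.94 in 22 pituitary libraries, 0.94 in 23 hypothalamus libraries and 0.97 in 24 ovary libraries. Class I members followed less closely, from 0.63 for H2-D1 to 0.38 for Nlrc5. The genes outside the list most like Cd74 were Igf2 (0.80), Islr (0.77), Serping1 (0.76), Mgp (0.76) and Slc13a3 (0.74). Their likeness came mainly from hypothalamus, where r was 0.88 to 0.96, against -0.06 to 0.36 in pituitary. In the older hypothalamus Igf2 was 74.5 ± 36.4 CPM in WT and 115 ± 49.0 in 200M, with overlapping groups.

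B2m was most like H2-D1 (0.70). Outside the list it was most like Gm13341 (0.55), the interferon-induced GTPase genes Gbp2 (0.54) and Gbp7 (0.53), Lgals9 (0.52), which encodes galectin-9, and Srgn (0.51), a granule proteoglycan of blood cells. These correlations describe libraries that share depth and dissection within a set, and the genes named are not independent of each other.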

How the data were processed

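RNA-seq counts per gene were analysed for 69 libraries. The deposited counts are whole numbers that the authors made by aligning reads to mm10 (GRCm38) with STAR 2.7.1a. The authors assigned reads to genes with HTSeq 0.9.1 (Ensembl) in older pituitary and hypothalamus, and with featureCounts (GENCODE) elsewhere, counting strand in the young cohort only. The columns holding the authors' own DESeq2 fold changes and p-values were not used, nor were 141 per-sample columns, copies or columns not matched to the labels. Symbols came from the deposited pairs of IDs and symbols (99.5% of 55964 IDs).

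Each pair of genotypes was fitted within its tissue and cohort with edgeR 4.0.16 (R 4.3.3, limma 3.58.1), using the quasi-likelihood test, TMM scaling, filterByExpr and Benjamini-Hochberg adjustment over all genes, and called at an adjusted p under 0.05. Each SE is the size of the log2 fold change divided by the root of its F statistic. Interaction terms used WT and 200M libraries. In the difference of effects the first set named minus the second is given. CPM used TMM factors over the libraries of a set, and levels per kilobase the summed exon length of GENCODE M21. Motifs and sequences came from RefSeq (GRCm38.p6) and GENCODE M21. Of the 6 members with a promoter window, the sequence of 1 is not reported here.

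Alternatives were DESeq2 1.42.0, median-of-ratios scaling, no filter, 1 fit over 3 genotypes, a replicate block, plain-sum CPM and leaving out each library. The scripts were tested on simulated data. Among 99 pairs of libraries of a group the chi-square per degree of freedom was 1.89 or higher, so none was a copy. Replicates are separate animals per the study's methods. The young WT pituitary library whose column number matches no label is called replicate u. Single marker genes were named, and summed levels without Itgax or Cd4 were added, after their values were seen. The members, the other pathway lists and the marker lists were chosen with earlier results of these data known. Named outside the members are, per list and direction, the 2 called genes of smallest adjusted p in 200M against WT, and the 5 genes most like Cd74 and B2m with a mean of at least 1 CPM in all sets.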

Additional observations from a re-analysis of the deposited data

Results flagged for a closer look

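Among 150 groups of 4 libraries, 7 held a library whose level stood apart from the other 3 by Dixon's test at 95%, which chance gives in about 1 of 20 groups. B2m was 1011 CPM in young pituitary 200H replicate 4, against 631 to 657 in the others. In young hypothalamus 200M replicate 1 stood high for H2-Ab1 (10.8 CPM, others 2.90 to 4.11) and Ciita (1.66 CPM, others 0.252 to 0.374), WT replicate 1 was the single WT library with Ciita counts (0.263 CPM, others listed at 0), and 200M replicate 3 was low for H2-K1 (3.19 CPM, others 9.53 to 10.8). H2-Ab1 was low in older hypothalamus WT replicate 2 (1.18 CPM, others 3.29 to 3.54), a library that was also the lowest WT value for H2-Aa and Cd74. Nlrc5 was 12.2 CPM in older pituitary 200H replicate 4, against 6.86 to 7.73, and without it Nlrc5 was called lower in 200H than in WT (edgeR, adjusted p = 0.025).

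The 89 interaction terms of members include some with young hypothalamus for members that did not pass the filter there by itself. The 200M effect differed between tissues or cohorts for 6 of the 89. The differences were 0.52 for B2m in young pituitary minus young ovary, -0.80 for B2m, -1.33 for H2-D1 and -1.35 for Nlrc5 in older pituitary minus older ovary, and -1.44 for B2m and -1.29 for H2-D1 in young ovary minus older ovary.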

How the results depend on the processing

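The counts in this section show how far the reported counts move. Where no share of all genes stands beside a count, a setting that calls more genes in general cannot be told apart. Such a count is not a result about the members. Of the counts of members called, those under median-of-ratios scaling were within 1.5 times the reported count in all 18 comparisons. With DESeq2 the count became 0 in young pituitary (200M against WT, reported 1), where DESeq2 called 15.8% of all genes. It became 4 in older hypothalamus (reported 0, 5.11% of all genes). For 200M against 200H it became 4 in older pituitary (0.845%), 3 in older hypothalamus (6.01%) and 4 in older ovary (4.62%). For the effect differences it became 1, Ciita, for young pituitary minus young hypothalamus (11.8%). It became 2 for older ovary minus older hypothalamus (3.12%) and 7 for young ovary minus older ovary (1.83%). Without the filter it became 4 in young ovary and 7 in older hypothalamus for 200M against WT. It became 1 each in young pituitary, young ovary and older hypothalamus for 200H against WT, and 1 in young pituitary, 4 in older pituitary and 6 in older hypothalamus for 200M against 200H. Without the filter the effect differences numbered 2 for young pituitary minus young ovary, 2 for young ovary minus young hypothalamus, 4 for older pituitary minus older hypothalamus, 4 for young pituitary minus older pituitary and 1 for young hypothalamus minus older hypothalamus. With 1 fit over 3 genotypes the count was 0 in young ovary and 4 for 200M against 200H in older ovary. The cause was not tested for any of these.

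Same-numbered libraries of a tissue did not deviate together throughout (r from -0.48 to 0.45, with no comparison in which every pair was over 0.1). The numbers were therefore not used as pairs in the reported fits. With so few pairs this check cannot exclude shared litters or batches, and pairs across tissues were not checked. With a replicate block, which drops libraries without a partner, the count became 0 in young pituitary, 1 in young ovary, 1 in older hypothalamus and 1 in older ovary for 200M against WT, 1 in young pituitary for 200H against WT and 0 in older ovary for 200M against 200H. Under the block the sign turned in young pituitary for Nlrc5 (0.22), H2-Aa (0.052), H2-Ab1 (0.15) and Cd74 (0.018), in young hypothalamus for B2m (-0.022) and in older pituitary for H2-D1 (0.14) and Tap1 (0.12), none of them called.

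Leaving out 1 library gave, for 200M against WT, 0 members in young pituitary, 1 to 3 in young ovary, 2 to 5 in older pituitary, 0 to 1 in older hypothalamus and 0 to 3 in older ovary. It gave 0 to 1 for 200H against WT in older pituitary, and 0 to 4 in older pituitary and 0 to 3 in older ovary for 200M against 200H. For the effect differences it gave 0 to 1 for young pituitary minus young hypothalamus, 1 to 2 for young pituitary minus young ovary, 0 to 1 for older pituitary minus older hypothalamus, 1 to 3 for older pituitary minus older ovary, 0 to 1 for older ovary minus older hypothalamus, 0 to 3 for young pituitary minus older pituitary, 0 to 1 for young hypothalamus minus older hypothalamus and 0 to 5 for young ovary minus older ovary. Uncalled log2 fold changes that crossed 0 ranged from -0.40 to 0.26 for Nlrc5 and -0.12 to 0.077 for H2-Ab1 in young pituitary, -0.21 to 0.18 for B2m and -0.021 to 0.74 for H2-Aa in young hypothalamus, -0.037 to 0.078 for H2-D1 and -0.084 to 0.17 for Nlrc5 in young ovary, and -0.12 to 0.14 for H2-D1 and -0.13 to 0.12 for Tap1 in older pituitary. Plain-sum CPM moved 5 of 180 group means by more than 1 SD. Depth limits the young hypothalamus most, where 4 members were not tested.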

Other observations

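In the older ovary the ratio of class I heavy chain to light chain RNA was taken within each library. H2-K1 to B2m was 1.09 ± 0.0731 in WT (SD, n = 4) and 0.795 ± 0.170 in 200M (n = 4), and H2-D1 to B2m was 0.827 ± 0.0604 in WT and 0.976 ± 0.170 in 200M. The groups overlap for both, as the WT ratios of H2-D1 reached 0.912 and its 200M ratios began at 0.761, while the WT ratios of H2-K1 began at 1.01 and its 200M ratios reached 1.05. In the older pituitary H2-D1 to B2m was 0.827 ± 0.0921 in WT, 0.661 ± 0.0242 in 200H and 0.676 ± 0.0866 in 200M. Since reads of near-identical class I genes can be shared among them, these ratios carry the uncertainty of read assignment.

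Cd4 is a coreceptor of helper T cells and is also made by some myeloid cells. In the older ovary it reached 34.0 to 78.7 CPM in 200M, while Cd3e, a T cell receptor subunit, was 2.73 to 4.48 CPM in the same group. In WT they were 2.16 to 4.56 and 0.963 to 1.72 CPM. Itgax, an integrin of dendritic cells and macrophages, was 38.8 to 150 CPM in 200M and 7.62 to 17.3 in WT, and Adgre1, a macrophage receptor, was 5.51 to 41.7 and 15.4 to 24.5.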
